A study of Caenorhabditis elegans with 4 samples.

Results

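LIN-39 binding was examined in the central parts of autosomes II, III and IV of the nematode Caenorhabditis elegans. A peak belonged here when it lay on II, III or IV and its midpoint fell from 25% up to but not including 75% of the chromosome span, the span being the largest coordinate found on that chromosome in any of the 3 deposited peak lists. Of the 1874 peaks in the combined list of the series, 328 met this rule, 114 on II, 105 on III and 109 on IV. The other 228 peaks of these chromosomes lay in the arms. The rule used position only, among peaks already called as enriched.

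The data came from chromatin immunoprecipitation followed by sequencing (ChIP-seq) of 4 samples, 2 from precipitated chromatin (LIN-39 ChIP) and 2 from input DNA, of which only the ChIP peak lists were analysed here. All were L2 hermaphrodites of strain OP18 grown at 20 °C. They carry the unc-119(ed3) allele on chromosome III and the transgene wgIs18, which holds unc-119(+) and lin-39 fused to TY1, EGFP and 3xFLAG. The transgene was made by bombardment and outcrossed 3 times, so both ChIP and input samples hold the tagged copy, and the labelled genotype lists no change at the worm's own lin-39. An antibody to GFP pulled down the fusion protein, so the peaks report the tagged protein in whole larvae and not in any one cell type. The lists hold no read counts, so depth is unknown, and nothing says whether the replicates were separate cultures.

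LIN-39 is a homeodomain protein of the worm's Hox cluster. It patterns the middle of the body, where it keeps vulval precursor cells from fusing with the surrounding epidermis, and it acts in the migration of Q neuroblast descendants and in the fates of ventral cord neurons. Hox proteins of this kind bind DNA with partner homeodomain proteins, in the worm CEH-20 and UNC-62. The autosomes of C. elegans have gene-rich centres with little recombination, flanked by arms that hold more repeats. The tagged gene lin-39, its Hox neighbour ceh-13, the Hox genes mab-5 and egl-5, and unc-119 are all on chromosome III. The only gene table at hand follows another genome build, so the peaks were not placed relative to these genes, and no gene or sequence is given for a peak.

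Peaks were denser in the centres than in the arms of all 3 chromosomes. The centres held 14.1 peaks per Mb over 23.3 Mb, against 9.80 per Mb in arms of the same total length. By chromosome the centre had 14.9 and the arms 10.3 peaks per Mb on II, 15.2 and 9.14 on III, and 12.5 and 9.85 on IV. The centres thus took 59.0% of the 556 peaks of II, III and IV (Wilson 95% interval 54.9 to 63%, for counting error only). Over the whole series the density was 18.7 peaks per Mb, above that of these centres. For the same definition, the centre had 12.6 and the arms 8.33 peaks per Mb on V, and 18.5 and 17 on X, while on I the order was reversed, with 48.7 in the centre and 56.1 in the arms. Peaks of a list are not replicates, so these differences are given as measured, with no test across samples.

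Density was uneven inside the centres. In slices of 10% of the span, II ran between 14 peaks (25 to 35% of the span) and 29 peaks (35 to 45%). III ran between 16 peaks in its slice from 25 to 35% and 29 in that from 55 to 65%. IV had most peaks from 35 to 45% (31) and fewest from 65 to 75% (15). The most crowded slice therefore lay left of the middle on II and IV and right of it on III.

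**Figure D1:**
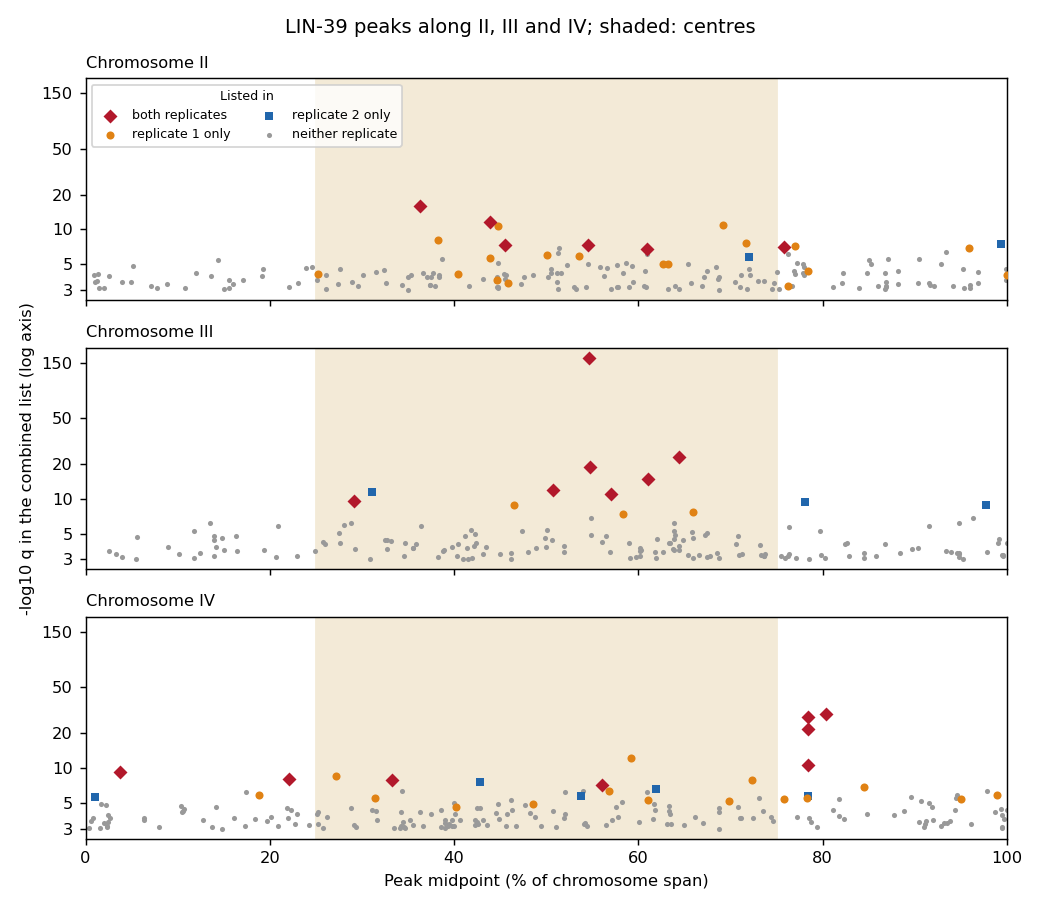
Every combined peak of II, III and IV by its midpoint (x axis, % of chromosome span) and its -log10 q (y axis, log scale), with the centres shaded and the marker showing the replicate lists that hold it. The peaks with -log10 q above 9 in the centres are all marked as listed in a replicate, and 1 peak on III stands at 164.76.

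Strength is given below as q, the deposited significance of a peak, where a smaller value means stronger evidence of enrichment and not more protein bound, and ranks are among the 328 centre peaks. The median -log10 q was 3.89 in the centres (interquartile range 3.32 to 4.72) and 3.71 in the arms (3.30 to 4.62), and over all combined peaks it was 3.96. The centre medians were 3.91 on II, 3.93 on III and 3.79 on IV, against 3.96, 3.50 and 3.88 in the arms. A q of 1e-04 or less was reached by 159 centre peaks (48.5%) and by 99 arm peaks (43.4%), a difference of 5.05 percentage points whose Newcombe 95% interval ran from -3.36 to 13.3. Over the whole series 49.4% of the 1874 peaks reached it, so the centres stood near that background and were not stronger than the series. On III it was reached by 49.5% of centre peaks and 33.3% of arm peaks, a difference of 16.2 points (0.725 to 30.2), while the intervals for II and IV included 0. Of the 20 strongest peaks of the whole series, 3 were centre peaks, all of them on III. They included III:7518972-7549765 and III:7550875-7554946, which lay 1109 bp apart. Of the 100 strongest, 14 were centre peaks, 4 on II, 9 on III and 1 on IV. The centres held 328 of the 1874 combined peaks, and neither count exceeded that share.

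A peak was called listed in a replicate when a peak of that replicate overlapped it by at least 1 bp. Replicate 1 listed 39 of the 328 centre peaks (11.9%, Wilson 8.82 to 15.8%), against 11.3% of all combined peaks. Replicate 2 listed 19 (5.79%, 3.74 to 8.87%), against 4.32% of all. Both listed 14 (4.27%, 2.56 to 7.04%), against 3.15% of all, and at least 1 listed 44 (13.4%, 10.1 to 17.5%), against 12.4% of all. Each share of the whole series falls inside the interval for the centres, so recurrence here was near the background of the series. Of the 159 centre peaks with a combined q of 1e-04 or less, replicate 1 listed 23.3% and at least 1 replicate 26.4%, against 21.3% and 23.5% of the 926 such peaks of the whole series. A peak that passed in 1 replicate would also tend to score well in the combined list, so recurrence is not independent support for a combined peak.

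Strength and recurrence went together, and the listed share fell with rank. Shares by rank were not computed over the whole series, so this fall is not shown to be particular to the centres. At least 1 replicate listed 12.4% of all combined peaks and 23.5% of those with q of 1e-04 or less. All of the 25 strongest centre peaks were listed in at least 1 replicate, down to q = 6.75e-08 (10 of 10 for ranks 1 to 10 and 15 of 15 for ranks 11 to 25). Of ranks 26 to 50, 9 of 25 were listed (36.0%, 20.2 to 55.5%), of ranks 51 to 100, 6 of 50 (12.0%, 5.62 to 23.8%), and of ranks 101 to 200, 3 of 100. Among the last 128 peaks, 1 was listed (0.781%, 0.138 to 4.29%). Replicate 2 listed no centre peak beyond rank 45, where the combined q was 1.82e-06, while replicate 1 listed peaks down to rank 229.

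Only chromosome III had a complete edge between listed and unlisted peaks. Its 11 listed peaks were its 11 strongest, and the 94 others were in neither replicate. On II the 8 strongest peaks came before the first unlisted one, out of 19 listed in all, and on IV likewise 8, out of 14. The last listed peaks of II were II:6812497-6812717 (rank 195, q = 0.000208 in the combined list and 0.000165 in replicate 1) and II:6992931-6993344 (rank 229, 0.000345 and 0.000998). The peak at 6812497 had a smaller q in replicate 1 alone than in the combined list.

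The centre peaks present in both replicates numbered 14, 7 on III, 5 on II and 2 on IV. Their coordinates, like all others here, are of build WormBase WS220. All had a combined q of 1.68e-07 or less, widths of at least 198 bp and, in every case, a smaller q in the combined list than in either replicate. In 11 of the 14 replicate 1 had the smaller q of the replicate lists.

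Chromosome III supplied the strongest of them. The peak III:7518972-7549765 had a combined q of 1.73e-165, with 9.49e-47 in replicate 1 and 3.75e-24 in replicate 2. It stood alone, with a combined -log10 q 7.20 times that of the next centre peak. That next peak, III:8873985-8874667, was 683 bp wide and had a combined q of 1.35e-23, with 9.51e-09 in replicate 1 and 6.23e-10 in replicate 2. It was 1 of the 3 peaks with the smaller q in replicate 2.

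The third-ranked peak, III:7550875-7554946, lay 1109 bp to the right of the widest interval. Its combined q was 1.26e-19, with 1.67e-05 in replicate 1 and 0.000204 in replicate 2. A narrower peak, III:7556604-7556798 (q = 1.36e-05), followed after another 1657 bp, and III:7559849-7560081 (q = 1.43e-07) after 3050 bp more. These 4 peaks form a run of 41110 bp in which the 2 wide members were in both replicates and the 2 narrow ones in neither. To the left of the run no combined peak lay between position 7162479 and its start. That stretch of 356 kb was the longest without a peak in the centres of II, III and IV. The transgene holds lin-39, a gene of III, and the control used in calling is not named. Whether added copies bear on the wide peaks of this run was not tested.

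The other 4 peaks of III in both replicates were between 294 and 714 bp wide, where the centre of III had a median width of 216 bp and an upper quartile of 346 bp. III:8417175-8417888 (714 bp) had a combined q of 1.34e-15, with 7.81e-06 in replicate 1 and 4.21e-05 in replicate 2. III:6987954-6988420 (467 bp) had 1e-12, 3.99e-06 and 0.000832 in the same order of lists. III:7854468-7854761 (294 bp) had 1.08e-11, 1.71e-05 and 3.32e-05, and III:4018196-4018622 (427 bp) had 2.24e-10, 0.000777 and 0.000338. Of the 7 peaks, 6 lay between 50.7% and 64.4% of the span and only III:4018196-4018622 lay further left, at 29.2%.

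On chromosome II the strongest centre peak was II:5543341-5544348, with a combined q of 1.34e-16, 3.72e-09 in replicate 1 and 1.84e-05 in replicate 2. II:6707475-6707819 had 2.49e-12, 5.71e-07 and 8.49e-06 in the same lists. The remaining members were weaker and close to each other in the replicates. II:6951315-6951671 had 4.43e-08, 0.000541 and 0.000571, II:8328919-8329272 had 4.84e-08, 0.000365 and 0.000473, and II:9306771-9307208 had 1.68e-07, 0.000449 and 0.000836. All 5 had the smaller q in replicate 1.

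Chromosome IV supplied few. IV:5811138-5811504 had a combined q of 1.37e-08, with 0.000996 in replicate 1 and 0.000348 in replicate 2, which places it just under the limit of 0.001 that bounds all 3 lists. IV:9790809-9791006 was the narrowest of the 14 at 198 bp, with 6.75e-08, 3.66e-05 and 0.000252. Both replicates listed 2 of 109 centre peaks on IV (1.83%) and 6 of 86 arm peaks (6.98%), a difference of -5.14 percentage points (Newcombe 95% interval -12.7 to 0.794).

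**Figure D2:**
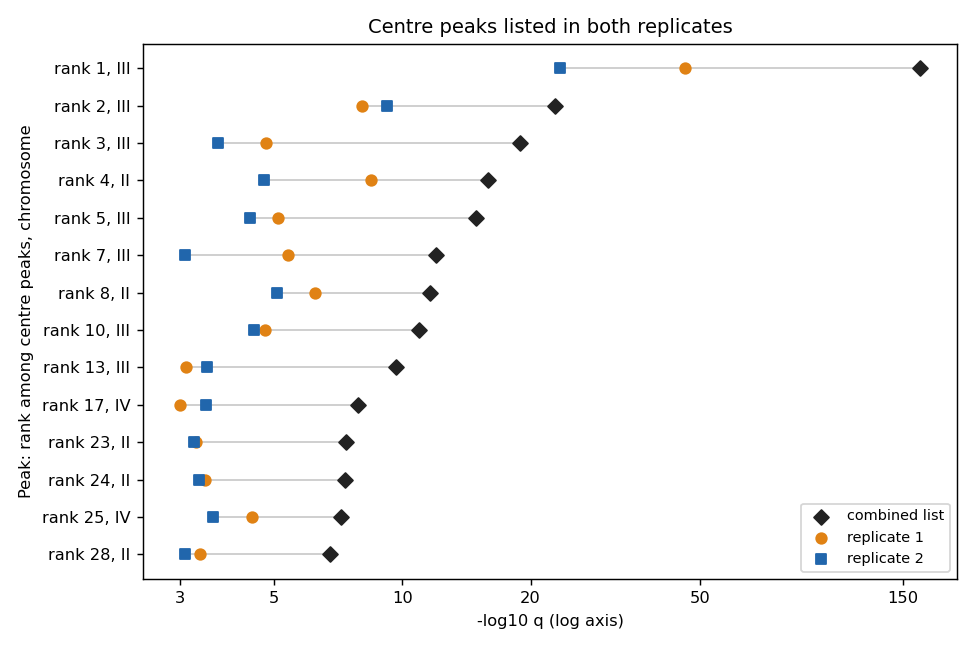
The 14 centre peaks present in both replicates, in order of rank, with -log10 q (x axis, log scale) in the combined list and in replicates 1 and 2. The combined value lies right of both replicate values for every peak, and replicate 1 lies right of replicate 2 for 11 of them.

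The combined score was compared with the replicates' scores by dividing it by the sum of both replicates' -log10 q. Each q belongs to its own list and depth is unknown, so the scales of the 3 lists may differ. Only peaks listed in both replicates could enter, so the ratio is a description of those peaks. The median ratio over the 14 peaks was 1.21 (0.89 to 2.37). It was 1.08 on II (5 peaks, 1.03 to 1.21) and 1.47 on III (7 peaks, 1.19 to 2.37), and on IV the 2 peaks had 0.89 and 1.22. The 2 wide peaks of III had 2.37 and 2.23, and without them the median on III was 1.42 (5 peaks, 1.19 to 1.57). Across the 14 peaks the replicates' -log10 q had a Spearman rho of 0.73, and 0.64 over the 12 left without the 2 wide peaks. Both are descriptions of peaks from a single pair of libraries.

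Overlapping peaks of a replicate and of the combined list mostly lay at nearly the same position. Replicate 1 peaks covered a median of 88.5% of the combined centre peak they overlapped (39 peaks), and replicate 2 peaks 88.1% (19 peaks). In 33 of the 39 cases the replicate 1 peak lay wholly inside the combined one, and in 14 of the 19 cases the replicate 2 peak did. The midpoints differed by a median of 9 bp in replicate 1 and 6 bp in replicate 2. No centre peak overlapped several peaks of the same replicate. Peaks were paired only where they overlapped, and the replicates were compared with the combined list and not with each other. These values are therefore no independent measure of agreement in position.

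Some peaks departed from that pattern. In II:5543341-5544348 both replicates covered only the left part of the 1008 bp, 53.7% in replicate 1 and 51.1% in replicate 2, and stopped 437 and 491 bp short of its right end. In the widest interval on III, replicate 1 covered 99.9% and replicate 2 covered 52.5% of the 30794 bp. Replicate 1 covered under 50% of 3 centre peaks. They were IV:9790809-9791006 (46.0%), II:3848600-3848684 (16.5%) and IV:8492982-8493238, where a replicate 1 peak of 7 bp covered 2.33%.

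**Figure D3:**
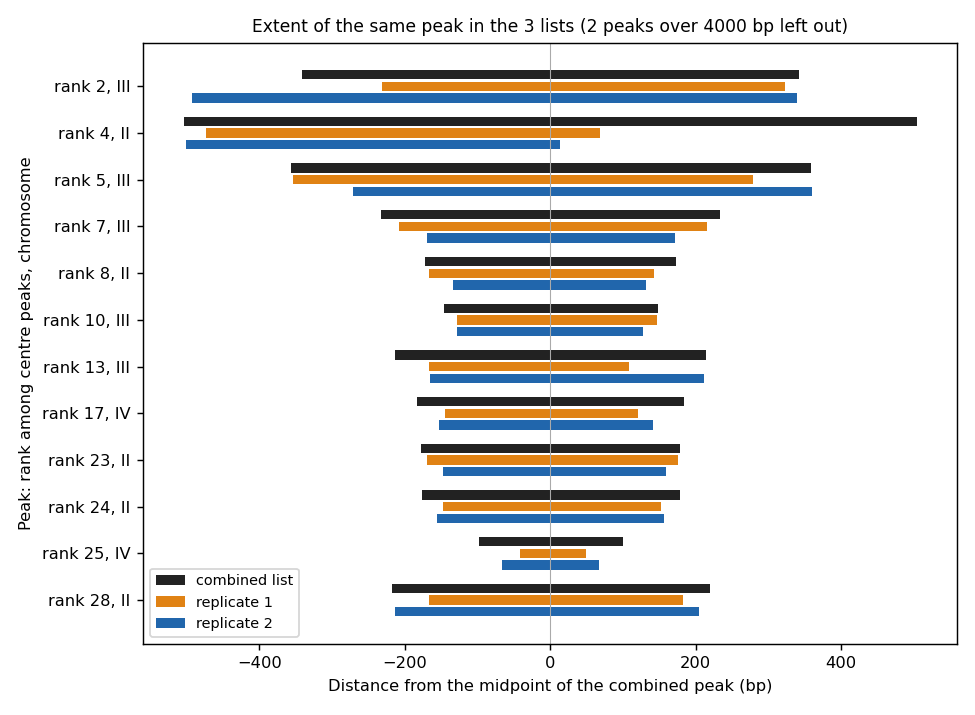
Start and end of 12 centre peaks present in both replicates, drawn as bars at their distance in bp from the midpoint of the combined peak (x axis), for the combined list, replicate 1 and replicate 2. The rank 4 peak on II is the 1 whose right part is missing from both replicates.

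Peaks found in a single replicate were mostly of replicate 1, whose list held 239 peaks in all, against 83 for replicate 2. Replicate 1 alone listed 25 centre peaks (7.62%), near its share of 8.11% over all combined peaks. They were 13 on II, 3 on III and 9 on IV, with a median combined -log10 q of 5.94. The strongest was IV:10341674-10342684 (1011 bp, rank 6), with q = 7.17e-13 in the combined list and 2.17e-07 in replicate 1. It was followed by II:10563303-10563647 (1.09e-11 and 2.10e-07) and II:6838180-6838571 (1.57e-11 and 6.69e-09). The value of 6.69e-09 is smaller than that of IV:10341674-10342684 and II:10563303-10563647 in the same replicate, yet replicate 2 listed no peak there.

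The next in combined order ran as follows. III:6404980-6405491 had q = 1.53e-09 in the combined list and 2.08e-06 in replicate 1, and IV:4749904-4750221 had 3.15e-09 and 1.14e-05. II:5844614-5845003 had 7.70e-09 and 2.46e-05, IV:12637346-12637717 had 1.39e-08 and 3.47e-05, III:9084247-9084615 had 2.07e-08 and 0.000177, and II:10946808-10947143 had 2.25e-08 and 2.54e-06. The last of these 6 was the weakest in the combined list and the second strongest of them in replicate 1.

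Replicate 2 alone listed 5 centre peaks (1.52%, against 1.17% of all combined peaks). III:4281928-4282628 was the strongest of these (rank 9), with q = 3.96e-12 in the combined list and 2.13e-05 in replicate 2. IV:7486314-7486478 had 2.75e-08 and 0.000410, IV:10821461-10822229 had 2.63e-07 and 0.000571, II:10986695-10986988 had 1.75e-06 and 9.13e-05, and IV:9390072-9390174 had 1.82e-06 and 0.000877. Why a peak is absent from a replicate's list is not given in the sources used here, and its signal there was not measured.

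The 284 centre peaks in neither replicate (86.6%, against 87.6% of all combined peaks) were weaker and narrower by median than the listed ones. Over all 328 centre peaks the median -log10 q was 3.89 and the median width 199 bp. Unlisted peaks had medians of 3.77 and 190.5 bp, against 7.37 and 362 bp for the 44 listed ones. The strongest unlisted peaks were II:7840808-7841058 (q = 1.09e-07), II:9308590-9308999 (2.13e-07) and II:7836557-7836921 (5.58e-07) on II. On III they were III:7559849-7560081 (1.43e-07), III:3969179-3969530 (6.16e-07) and III:8795467-8796157 (7.23e-07). On IV they were IV:9438720-9438811 (4.72e-07), IV:6003468-6003562 (4.74e-07) and IV:10650314-10650578 (5.14e-07). The peak II:9308590-9308999 was a near neighbour of II:9306771-9307208, which both replicates listed with a combined q of similar size.

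No centre peak under 50 bp was listed in a replicate. The median width was 199 bp in the centres and 199 bp in the arms, with quartiles of 84.5 and 345 bp in the centres and 81.0 and 341.2 bp in the arms. There were 64 centre peaks under 50 bp (19.5%, Wilson 15.6 to 24.1%), 24 on II, 19 on III and 21 on IV, and 31 of them were 10 bp or shorter. Such peaks made up 18.4% of the arm peaks and 16.7% of all combined peaks, which lies inside the interval for the centres, and 10.1% of the centre peaks with q of 1e-04 or less. Of the 64, 0 were in a replicate, which allows a share of up to 4.69%, and of the 42 in the arms 0 were. The narrow peaks were also weak, with a highest -log10 q of 5.29 and with 38 of the 64 in ranks 201 to 328, where 1 of 128 peaks was listed. Width and strength were thus not told apart here. Of peaks from 50 to under 200 bp 8 of 103 were listed (7.77%), of those from 200 to under 400 bp 20 of 103 (19.4%) and of those of 400 bp and over 16 of 58 (27.6%, 17.8 to 40.2%).

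The narrowest centre peaks spanned 2 bp, of which there were 7. The strongest of these was III:3588529-3588530 with q = 9.16e-05. At the other end, the 5 widest were III:7518972-7549765 (30794 bp), III:7550875-7554946 (4072 bp), II:3834453-3836003 (1551 bp), IV:10341674-10342684 (1011 bp) and II:5543341-5544348 (1008 bp). All but II:3834453-3836003 ranked among the 6 strongest, whereas that peak had q = 0.000218, rank 199, and was in neither replicate. Across the 328 peaks width and -log10 q had a Spearman rho of 0.32, and 0.24 over the 264 peaks of at least 50 bp, a description in which both values come from the same reads.

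**Figure D4:**
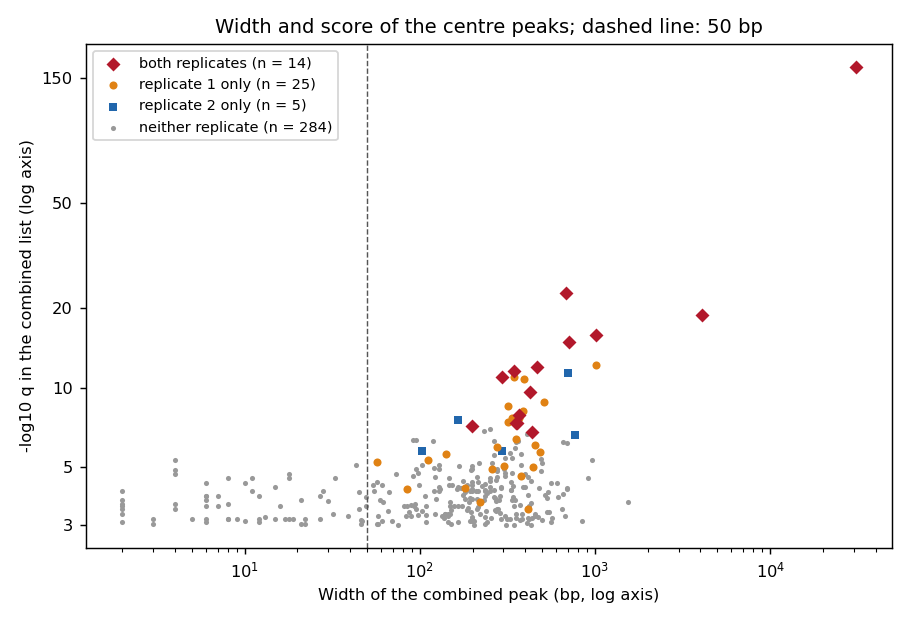
Width in bp (x axis, log scale) and -log10 q (y axis, log scale) of the 328 centre peaks, with the marker showing the replicate lists that hold each. No listed peak lies left of the dashed line at 50 bp, and the widest interval on III stands apart at 30794 bp.

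Covered length depended in part on 1 locus. Centre peaks covered 112181 bp, or 0.482% of the centres, against 61270 bp or 0.263% of the arms. The 2 wide peaks of III made up 34866 bp, 31.1% of the centres' total. Without them the share of the centres covered was 0.332%, above the 0.263% of the arms, from which no peak was removed. On III alone the covered share was 0.891% with them and 0.385% without them, against 0.367% in the centre of II and 0.261% in that of IV.

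Close spacing was less frequent than in the whole series, where it was most frequent on I. Of the centre peaks, 44 had another within 2 kb (13.4%, 10.1 to 17.5%), against 25 of the arm peaks (11%), a difference of 2.45 percentage points (Newcombe -3.29 to 7.80). Over all combined peaks the share was 21.7%, above the interval for the centres. On I it was 32.3% in the centre and 37.6% in the arms. It was 9.09% in the centre and 6.9% in the arms of V, and 20.1% and 6.67% on X. The lower share of these centres was thus not particular to them. Joined at 2 kb the 328 peaks made 303 regions, 284 single peaks, 15 pairs and 4 larger groups. Median gaps between neighbouring peaks were 43.4 kb on II, 37.8 kb on III and 51.4 kb on IV.

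The larger groups differed in kind. II:6821055-6827698 held the most peaks, 5 in 6644 bp, but all were weak, with q from 0.000125 to 0.000677, and none was in a replicate. III:8287404-8289406 held 3 peaks of the same kind (q from 0.000167 to 0.000642), none in a replicate. III:8872763-8876077 held the second-ranked peak with a flanking peak of 656 bp (q = 0.000116) on its left and one of 2 bp (q = 0.000236) on its right, both in neither replicate. The fourth group was the wide interval on III with the peaks to its right. On IV no group held more than 2 peaks, and its pair with the smallest q was IV:7486314-7488085 (2.75e-08). Peaks with a neighbour within 2 kb were listed in 9 of 44 cases (20.5%, 11.2 to 34.5%) and single ones in 35 of 284 (12.3%, 9 to 16.7%). These intervals overlap. Over all combined peaks 12.4% were listed, and shares by spacing were not computed for the series. No trait of grouped centre peaks is therefore read from this contrast.

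Centres and arms were then compared for recurrence. Replicate 1 listed 11.9% of centre peaks and 7.89% of arm peaks, a difference of 4 percentage points (Newcombe 95% interval -1.24 to 8.86). Replicate 2 listed 5.79% and 5.26%, a difference of 0.530 points (-3.71 to 4.33). Over the 3 chromosomes together neither difference was larger than its counting error.

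The chromosomes did not share 1 direction. On II replicate 1 listed 18 of 114 centre peaks (15.8%) and 6 of 79 arm peaks (7.59%), a difference of 8.19 points (-1.55 to 17.0). On III it listed 10 of 105 centre peaks (9.52%) and 0 of 63 arm peaks (up to 4.76% by the limit of 3 counts and up to 5.75% by the Wilson interval), a difference of 9.52 points (2.37 to 16.6). On IV it listed 11 of 109 centre peaks (10.1%) and 12 of 86 arm peaks (14.0%), a difference of -3.86 points (-13.7 to 5.28). Only the interval for III left out 0 among the 6 intervals by chromosome and replicate, and whether the chromosomes differ from each other was not tested. In replicate 2 the difference was 2.73 points on II (-4.12 to 8.76), 4.44 on III (-4.09 to 11.5) and -4.72 on IV (-13.1 to 2.56).

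**Figure D5:**
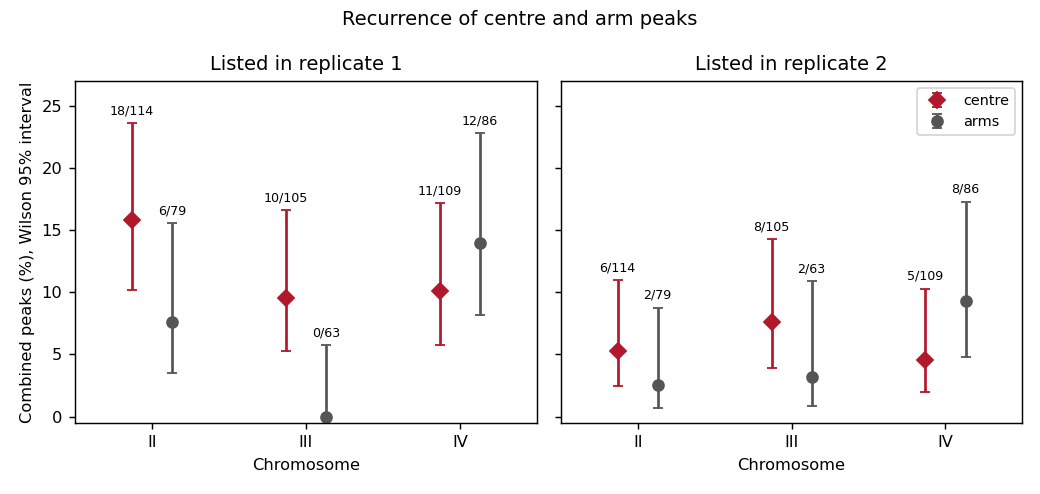
Share of combined peaks listed in replicate 1 (left panel) and replicate 2 (right panel), in % (y axis), for the centre and the arms of each chromosome (x axis). Bars are Wilson 95% intervals and the labels give listed peaks over all peaks; in replicate 1 the centre of III stands at 9.52% and its arms at 0%.

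Counted from the replicate lists themselves, 48 of the 68 replicate 1 peaks of II, III and IV lay in the centres (70.6%, 58.9 to 80.1%), 22 of 29 on II, 11 of 11 on III and 15 of 28 on IV. In replicate 2 they were 19 of 31 (61.3%, 43.8 to 76.3%), 6 of 8 on II, 8 of 10 on III and 5 of 13 on IV. Of the 48, 14 were also in replicate 2 (29.2%, 18.2 to 43.2%), and these were 14 of the 19 in replicate 2 (73.7%, 51.2 to 88.2%). The same shares were not computed over the whole lists of 239 and 83 peaks. Whether they are particular to the centres is therefore not known. The combined list contained all 19 of replicate 2 and 39 of the 48 of replicate 1.

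The 9 replicate 1 peaks that the combined list lacked were short, with a median width of 10 bp, and 8 of them were under 50 bp. The strongest were II:4501771-4501802 (32 bp, q = 0.000167), IV:6859795-6859836 (42 bp, 0.000205) and IV:6815851-6815853 (3 bp, 0.000255). The single longer one was IV:12815467-12815609 (143 bp, 0.000811). None was in replicate 2, and the nearest combined peak was 773 bp away or farther in each case.

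The borders of the centres were not marked by any single peak. At the left border the nearest peaks inside and outside were II:3834453-3836003 (q = 0.000218) and II:3758350-3758478 (1.95e-05), III:3555237-3555335 (5.31e-05) and III:3437195-3437572 (0.000299), and IV:4396293-4396491 (9.05e-05) and IV:4230394-4230400 (0.000551). At the right border the nearest inside and outside were II:11414230-11414414 (0.000374) and II:11452973-11453265 (5.43e-05), III:10170385-10170416 (0.000475) and III:10407226-10407459 (0.000614), and IV:13028376-13028651 (0.000338) and IV:13240486-13240814 (4.14e-06). None of the 6 peaks just inside was in a replicate, and of the 6 just outside 1 was, IV:13240486-13240814, with q = 7.75e-05 in replicate 1.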

How the data were processed

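Peaks of both LIN-39 ChIP replicates and of the series were used as deposited, 3 lists with a chromosome, a start, an end and a p-value column. Per the file headers and source column, the authors called them with PeakSeq on WormBase WS220. The deposited p-values were read as q-values, because the product of value and peak number decreased at 0 steps, within a relative tolerance of 1e-09. The sources used here name no aligner, caller version, threshold, filter or control, and do not say whether reads were pooled for the combined list. Per the labels' protocols, worms were fixed in 2% formaldehyde.

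Overlap needed 1 bp, and where several replicate peaks could overlap the one with the smallest q was taken. Shares carry Wilson and differences Newcombe 95% intervals, for counting error only. A share of 0 was bounded by 3 counts. No test across samples or peaks was made. The regions, rules and lists were chosen with earlier results of these data known. The named regions were the 20 strongest centre peaks, those in both replicates, the 3 strongest per chromosome in neither, the 5 widest, the largest groups, the border peaks and the 3 strongest replicate peaks the combined list lacks; others were named after their values were seen. The RefSeq gene table (build WBcel235) gave names only. Python 3.11.15 was used with scipy 1.17.1, pandas 2.3.3, matplotlib 3.10.9 and numpy 2.4.6. The overlap function was tested on simulated data, and the grouping and interval functions on fixed cases with known answers.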

Additional observations from a re-analysis of the deposited data

How the results depend on the processing

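Of 66 recomputed values for 8 results, 56 stayed within the interval of the reported value, or within 1.5 times for the count. With a combined q of 1e-04 or less, 159 centre peaks were left, of which replicate 1 listed 23.3%, replicate 2 11.9%, both 8.81% and at least 1 26.4%, while 10.1% were under 50 bp and 9.43% had a neighbour within 2 kb. The count of peaks changes by construction, and the cause of the other changes was not tested. A centre from 0.30 to 0.70 of the span held 48.9% of the peaks of II, III and IV and one from 0.20 to 0.80 held 68.3%, as a shorter or longer centre must. Leaving out 1 replicate gave 5.79% (without replicate 1) to 11.9% (without replicate 2) of centre peaks listed in at least 1. The 4 recurrence shares stayed within their intervals under stricter overlap, joined peaks, peaks of at least 50 bp, each chromosome left out and the 2 wide peaks left out. So did the narrow and neighbour shares with each chromosome left out, and the share lying in the centres with peaks joined. No paired analysis was possible because the input DNA samples have no peak list here. Depth is unknown, so absence from a list cannot be read as absence of binding.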

Other observations

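The following values were chosen after the lists were seen and were not tested. Among peaks from 50 to under 200 bp, replicates listed 8 of 103 in the centres (7.77%) and 0 of 73 in the arms, which allows up to 4.11%, a difference of 7.77 percentage points (Newcombe 95% interval 1.5 to 14.6). Among peaks of at least 200 bp the shares were closer, 36 of 161 in the centres (22.4%) and 23 of 113 in the arms (20.4%), a difference of 2.01 points (-8.12 to 11.5).

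The most crowded 250 kb of the centres lay at II:6705658-6951671, with 15 peaks. Replicate 1 listed 5 of them and replicate 2 listed 2, and q ran from 2.49e-12 to 0.000768. That stretch holds the pair at II:6705658-6707819, the 5 weak peaks of II:6821055-6827698 and the replicate 1 peak at II:6838180-6838571. The most crowded 250 kb of III, III:8636879-8876077, held 12 peaks and that of IV, IV:6808052-7023379, held 11, with 1 listed in a replicate in each. On IV the smallest q there was 9.23e-06.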
